A study of Mus musculus with 20 samples.

Results

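A set of 7 genes that mark regions of the hippocampus was followed through the cortex transcriptomes of 20 aged APOE4 mice. They were taken by name from the 23413 gene names of the count tables. Of the 7 genes, 5 mark granule cells of the dentate gyrus (Prox1, C1ql2, Dsp, Lct and Tdo2) and 2 mark pyramidal cells of field CA1 (Fibcd1 and Spink8). The libraries came from frozen brain cortex of APOE4 knock-in (APOE4KI) mice, 1 library per mouse, and all animals, controls included, carried the human APOE4 allele and were 22 months old. Mice were given isocaloric amounts of the control diet (CD, SD in the labels) or of the ketogenic diet (KD), in which fat supplies nearly all of the energy, starting at 10 months of age and lasting 12 months. The female groups held 5 CD and 4 KD mice, the male groups 5 CD and 6 KD mice, and there were no wild-type mice. As bulk tissue was measured, more cells of a type and more RNA per cell cannot be told apart.

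The hippocampus lies directly beneath the neocortex, from which it is separated by white matter. Granule cells of the dentate gyrus receive the main cortical input and project to field CA3, whose pyramidal cells project to CA1, the main output stage of the circuit toward the subiculum and the cortex. Each of these fields expresses genes that are scarce in the overlying cortex, and reads from such genes are often used to gauge the dissection of cortical tissue. None of them is absolute: Prox1 is also made by a class of cortical interneurons and by oligodendrocyte precursors, and Dsp by the arachnoid of the meninges and by epithelia.

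Libraries are named by group and by the E number in the labels. Their totals ranged from 12207161 to 29109990 counts, and the S numbers of the library names in the labels formed 2 consecutive runs of 10, called series here, with 21015275 to 29109990 counts in series 1 and 12207161 to 17697342 in series 2. The labels do not say what a run stands for. Levels are given in CPM, each count scaled by the total of its library. Xist was at 319 CPM or more in the 9 females and at 7.59 CPM or less in the 11 males. Ddx3y, a gene of the Y chromosome, was at 164 CPM or more in the males and at 1.64 CPM or less in 8 females, and CD female E228 stood at 14.0 CPM. Mouse Apoe, replaced by the human allele in these animals, was at 3.34 CPM or less in every library.

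All 7 genes are protein-coding and lie on GRCm38 (mm10) as follows. Prox1 spans chr1:190118035-190170714 on the minus strand and overlaps Prox1os and Gm28172 on the plus strand. C1ql2 spans chr1:120340582-120343174 on the plus strand, Lct chr1:128284756-128328318 on the minus strand and Tdo2 chr3:81957090-81976202 on the minus strand. Dsp spans chr13:38151294-38198577 on the plus strand and overlaps Gm10129 on the minus strand. Fibcd1 spans chr2:31813290-31846005 on the minus strand and Spink8 chr9:109812280-109826633 on the plus strand. Which strand was counted is not stated, so reads of Prox1 and Dsp cannot be told apart from those of the genes on the other strand.

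The RefSeq promoters of GRCm38.p6 held entries for 6 of the 7 genes. The 250 bases before the transcription start are shown for the 3 genes on which the results below turn: C1ql2, the dentate marker that varied most between libraries, and Fibcd1 and Dsp, the pair of genes with the highest correlation over the 20 libraries. The windows are chr1:120340332-120340581 on the plus strand, chr2:31846006-31846255 on the minus strand and chr13:38151044-38151293 on the plus strand, each written 5′ to 3′ in lower case. Capitals mark matches to CANNTG, the E-box bound by basic helix-loop-helix factors, or to GGGCGG, the GC box bound by Sp1, on either strand.
C1ql2: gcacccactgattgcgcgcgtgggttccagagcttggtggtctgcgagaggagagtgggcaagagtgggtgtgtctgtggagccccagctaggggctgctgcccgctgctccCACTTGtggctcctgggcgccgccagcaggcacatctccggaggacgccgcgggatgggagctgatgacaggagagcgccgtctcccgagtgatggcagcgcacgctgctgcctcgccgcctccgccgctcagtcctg
Fibcd1: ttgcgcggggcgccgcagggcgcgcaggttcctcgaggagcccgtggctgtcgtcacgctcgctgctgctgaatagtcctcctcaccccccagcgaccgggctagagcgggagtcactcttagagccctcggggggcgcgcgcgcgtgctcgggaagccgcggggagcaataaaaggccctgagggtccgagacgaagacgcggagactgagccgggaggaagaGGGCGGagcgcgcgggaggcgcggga
Dsp: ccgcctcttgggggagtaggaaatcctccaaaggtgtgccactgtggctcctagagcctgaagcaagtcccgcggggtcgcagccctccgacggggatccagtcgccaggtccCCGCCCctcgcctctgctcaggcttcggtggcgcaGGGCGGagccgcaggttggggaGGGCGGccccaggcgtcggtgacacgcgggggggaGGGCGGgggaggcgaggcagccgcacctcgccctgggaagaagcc
The C1ql2 window held 1 E-box and 0 GC boxes. The Dsp window held 4 GC boxes and the Fibcd1 window 1, and neither held an E-box. Among all 32851 promoter windows of the same length, 66.2% held CANNTG and 32.7% held GGGCGG, so that holding either match does not set these genes apart. How many windows held as many as 4 GC boxes was not counted. The G+C content was 68.8% in C1ql2, 71.6% in Fibcd1 and 72.4% in Dsp, against a median of 52.4% over all windows. A TATAAA match, present in 12.4% of all windows, was found in the window of Tdo2 and in 1 of the 2 windows of Prox1, and a TGACG match, present in 17.8%, in that of Fibcd1.

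Every marker was detected in every library, at low levels. Levels of different genes are compared here per kilobase of exon, as CPM per kb. The median over the 20 libraries was 2.18 CPM per kb for Spink8, 0.860 for Prox1, 0.779 for Fibcd1, 0.538 for C1ql2, 0.340 for Tdo2, 0.155 for Lct and 0.0812 for Dsp. Spread between libraries also differed from gene to gene. Prox1 was the steadiest of the 7, with a coefficient of variation of 16.1% and 1.85-fold between the highest and the lowest library. C1ql2 (85.6-fold) and Fibcd1 (76.9-fold) varied most on the CPM scale, and the remaining 4 genes varied between 4.62-fold (Tdo2) and 14.6-fold (Dsp). Without KD male E64 these ranges were 37.2-fold for C1ql2 and 9.86-fold for Fibcd1, below the 13.5-fold of Dsp. Lct had the fewest counts, with 3 to 70 per library.

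**Figure D1:**
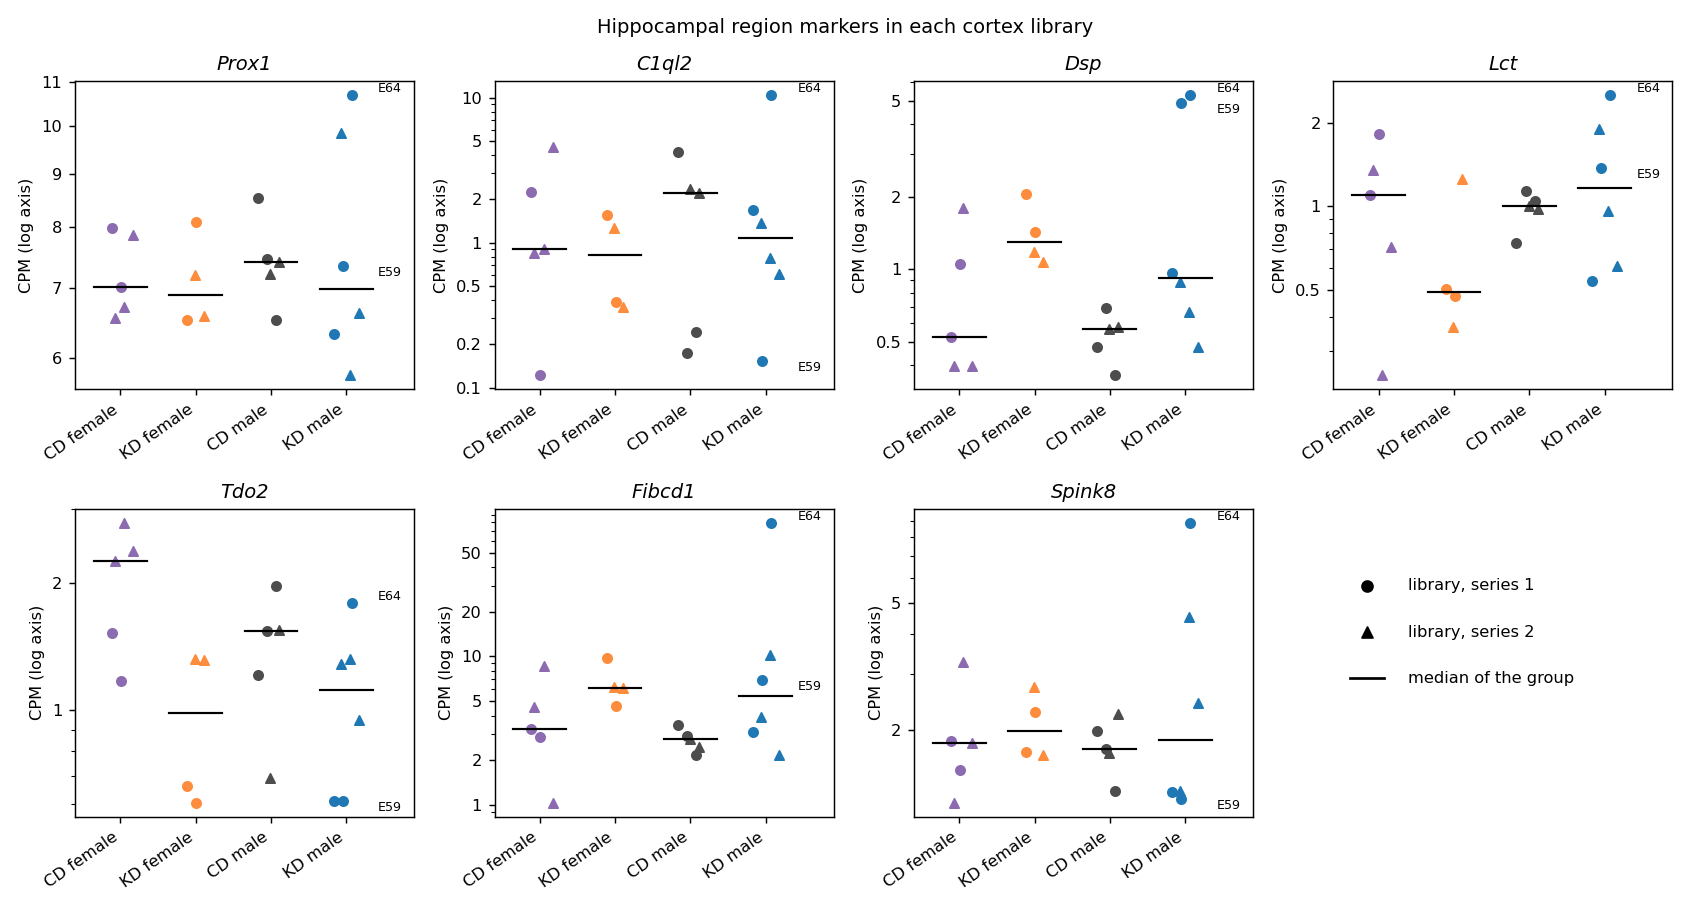
CPM of each of the 7 markers on a log axis, by group, with 1 point per library, circles for series 1, triangles for series 2 and a bar at the group median. KD male E64 is the highest library for 6 of the 7 genes, with Fibcd1 at 79.4 CPM, and KD male E59 is high for Dsp (4.91 CPM) but not for C1ql2 (0.152 CPM).

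The clearest feature of the markers was a single library, KD male E64, in which 6 of the 7 genes were at their highest (the exception, Tdo2, was highest in CD female E249). E64 was also the highest library for 19.9% of all 15660 genes tested, more than any other library (CD female E249 followed with 16.7%). Fibcd1 had the largest excess of the 7 genes. Fibcd1, a receptor that binds acetylated sugars, was at 79.4 CPM (2206 counts) in E64 against 10.2 CPM in the next library, KD male E254, and a median of 3.47 CPM in the other 19. With this 7.80-fold lead over the next library, it ranked first among the 13945 genes at 1 CPM or more in E64. Spink8, a Kazal-type inhibitor of serine proteases, was at 8.89 CPM in E64 and 4.52 CPM in E254, with a median of 1.75 CPM in the other 19.

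Dentate markers were raised less evenly in E64. C1ql2, a secreted C1q-like protein of mossy fibre synapses, stood at 10.4 CPM, 2.30-fold above the next library (4.53 CPM in CD female E265) and 11.5-fold above the median of the others. Dsp, which encodes the desmosomal linker desmoplakin, was at 5.29 CPM, hardly above KD male E59 (4.91 CPM). Lct, the intestinal lactase that also serves as a granule cell marker, was at 2.52 CPM against 1.90 CPM in KD male E213. Prox1, the homeobox factor that sets granule cell identity, was at 10.7 CPM against 9.84 CPM in E213, 1.48-fold above the median of the others. Tdo2, the enzyme that opens the tryptophan ring toward kynurenine, was at 1.80 CPM, with 4 libraries above it. Summed over the 5 dentate genes, E64 had 30.7 CPM against 15.9 CPM in the next library, and over both CA1 genes 88.3 CPM against 14.7 CPM.

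**Figure D2:**
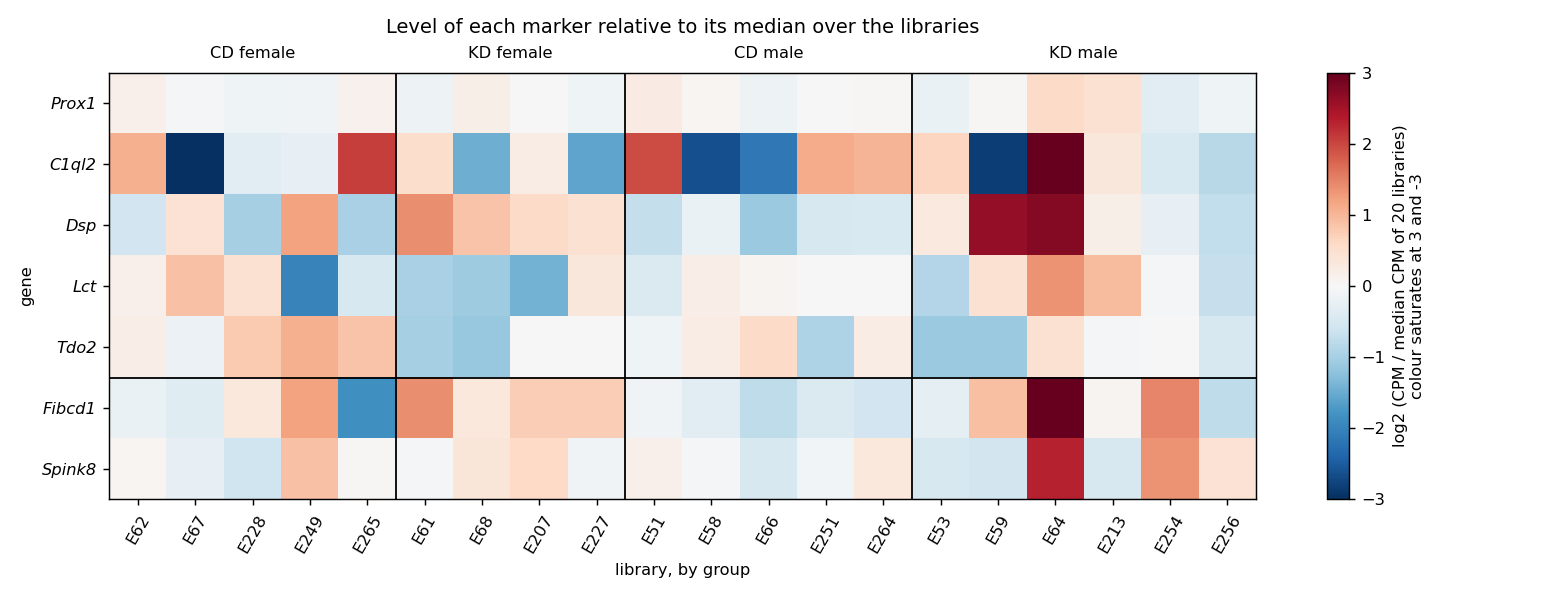
Each cell is the log2 ratio of a gene's CPM in a library to its median over the 20 libraries, red above and blue below, with the colour saturating at 3 and -3, and libraries ordered by group. The E64 column is red for all 7 genes, E59 for Dsp but blue for C1ql2 and Tdo2, and E254 for both CA1 genes (10.2 and 4.52 CPM) but not for the dentate genes.

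Other lists of hippocampal markers did not follow the 7 genes into E64 to the same extent. Of 10 further dentate genes, 0 were highest in E64, and their median ratio to the median of the other libraries was 0.866, against 2.58 for the 5 dentate members. The most abundant of them, Stxbp6, was at 108 CPM in E64 against a median of 147 CPM over the 20 libraries, Rfx3 at 212 CPM against 134 CPM and Dock10 at 84.6 CPM against 89.1 CPM. C1ql2 had a median of 0.901 CPM in the other libraries, so the ratios compare genes of unlike abundance. Plk5, with a median of 3.36 CPM in the other libraries, was at 8.03 CPM in E64 (2.39-fold, rank 2 of 20). Neurod1 was at 15.3 CPM (1.41-fold, rank 3), and Npnt was lowest in E64 at 4.36 CPM (0.277-fold). Of 5 further CA1 genes, with a median ratio of 1.63, 2 were highest in E64: Mpped1 at 260 CPM (at most 185 CPM elsewhere) and Gpr161 at 19.6 CPM (at most 5.69 CPM elsewhere). Man1a was at 69.1 CPM there, with 2 libraries above it, and Wfs1, the wolframin of CA1 and of superficial cortex, second at 89.2 CPM behind KD female E61 (100 CPM). Pou3f1 was lower, at 7.42 CPM against a median of 10.8 CPM in the other libraries.

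Markers of CA2 had a median ratio of 1.91 in E64, those of CA3 0.879 and those of newborn granule cells 0.744. In the CA2 list, Necab2 (78.1 CPM) and Rgs14 (55.6 CPM) were highest in E64, whereas Pcp4, the most abundant gene of that list, was lowest there at 148 CPM. The CA3 genes Coch (31.6 CPM) and Bok (16.6 CPM) were below their medians of 49.9 and 18.7 CPM, and Grik4 (17.8 CPM) was highest in E64. Among genes of newborn granule cells, Dcx was at 28.4 CPM and Sox11 at 49.7 CPM, against medians of 52.9 and 28.7 CPM, and Eomes was at 0.0360 CPM. The dentate members and the further dentate list thus read differently in the same library, and their genes differ in abundance.

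Some lists for tissues other than the hippocampus also stood apart in E64, where the median ratio over all genes tested was 1.05. All 8 genes of the meninges, the connective tissue sheath of the brain, were above the median of the others (median ratio 3.29) and 5 were at their highest, among them Dcn at 233 CPM against at most 135 CPM elsewhere. The meninges list summed to 452 CPM in E64, and to between 46.8 and 286 CPM in the other libraries. The 9 markers of cortical excitatory neurons had a median ratio of 0.722. Striatal markers had a median ratio of 1.02 with 0 of 12 at their highest, and choroid plexus markers 1.39 with 0 of 8. The hypothalamus list (median ratio 1.40) summed to 26.2 CPM in E64 against 21.3 CPM in KD female E61, with Trh alone at 25.0 CPM in E64. Among markers of cell types of the cortex that make Prox1, the lists of caudal interneurons and of oligodendrocyte precursors had median ratios of 1.84 and 1.83. Each held genes below 1, such as Vip (0.753) and Vcan (0.742). The part of the meninges and of these cells in the levels of the 7 genes was not tested.

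**Figure D3:**
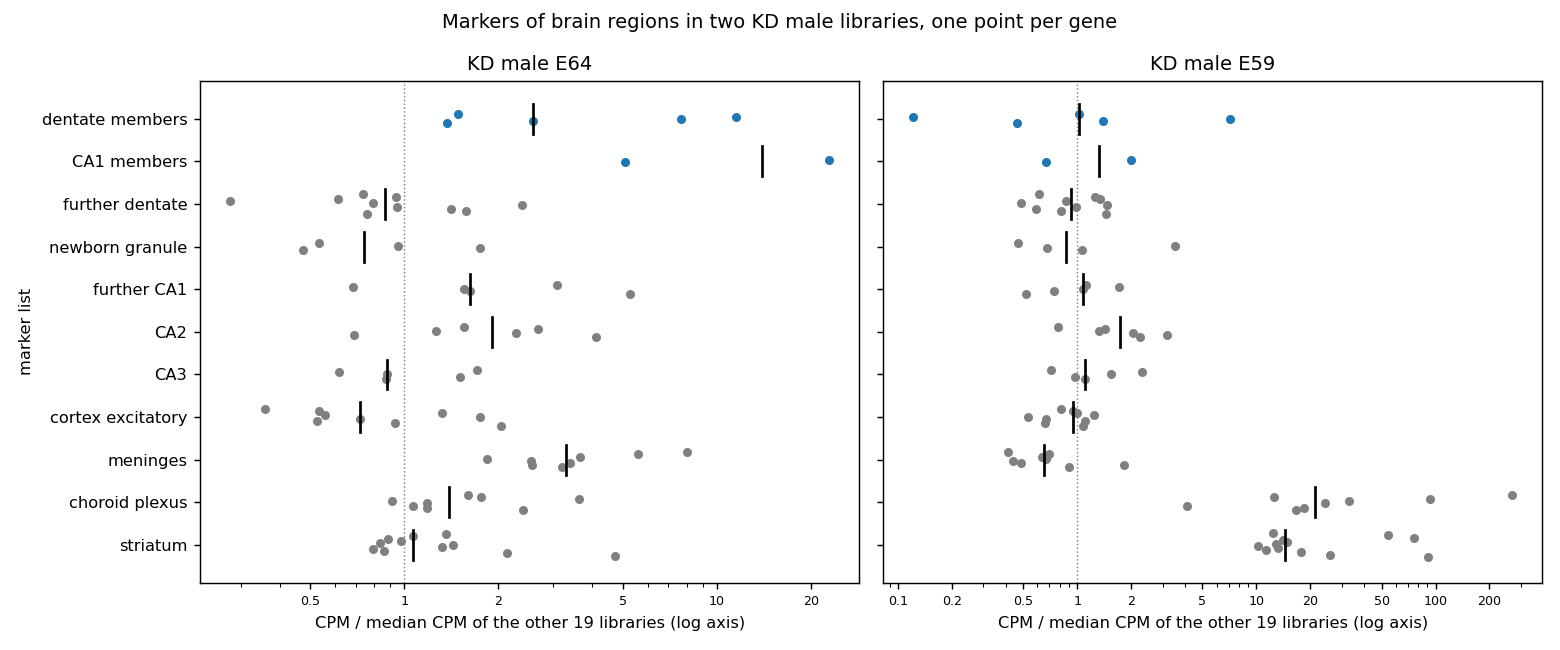
Ratio of each gene's CPM in KD male E64 (left) or E59 (right) to its median in the other 19 libraries, on a log axis, with 1 point per gene, a bar at the median of each list and the members in blue; genes at 0 are left out. In E64 the members and the meninges lie to the right of 1 and the further dentate list around 1, and in E59 choroid plexus (median ratio 21.2) and striatum (14.5) lie far to the right while of the members only Dsp does.

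A second KD male, E59, was high for Dsp and low for 3 other markers. Its Dsp level of 4.91 CPM (129 counts) was 7.15-fold the median of the other libraries, and Fibcd1 was at 6.89 CPM, with 4 of the other libraries above it. Lct was at 1.37 CPM (1.40-fold) and Prox1 at 7.35 CPM (1.02-fold). C1ql2 was at 0.152 CPM (4 counts), Tdo2 at 0.609 CPM and Spink8 at 1.22 CPM, each within the 3 lowest libraries. In this library all 8 choroid plexus markers were at their highest and summed to 2370 CPM, against at most 63.3 CPM elsewhere, with Ttr alone at 2187 CPM. The 12 striatal markers summed to 3384 CPM, the highest of the 20 libraries. Whether reads of Dsp in E59 came from such tissue was not tested.

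Within the dentate group, C1ql2 had a pattern of its own. It was at 4.53, 2.24, 0.901, 0.848 and 0.122 CPM in the 5 CD females and at 1.55, 1.25, 0.388 and 0.359 CPM in the 4 KD females. The 5 CD males had 4.20, 2.32, 2.18, 0.242 and 0.172 CPM. In the 6 KD males it ranged from 0.152 to 10.4 CPM, with a median of 1.1 CPM. Libraries with hardly any C1ql2 therefore occurred in both diets and both sexes, and all 4 groups overlapped.

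The other dentate markers were less variable. Prox1 had group means of 7.23 ± 0.662 CPM (SD, n = 5) in CD females, 7.10 ± 0.734 (n = 4) in KD females, 7.43 ± 0.722 (n = 5) in CD males and 7.77 ± 2.02 (n = 6) in KD males, with 7.19 ± 1.59 in KD males (n = 5) when E64 was left out. The order of these means is well within their spread. Lct was at 1.82, 1.36, 1.09, 0.715 and 0.246 CPM in CD females and at 1.26, 0.505, 0.474 and 0.368 CPM in KD females. It was between 0.737 and 1.13 CPM in CD males and between 0.537 and 2.52 CPM (median 1.17) in KD males. For Lct, too, each pair of diet groups overlapped.

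Some libraries stood apart in their tissue markers along with the diet groups. KD females E61, E68 and E207 had summed striatal markers of 2316 to 2875 CPM and summed cortical excitatory markers of 413 to 491 CPM. The 4 CD females other than E249 had summed levels of 210 to 251.03 CPM and 823 to 938 CPM, and KD female E227 was close to them with 273 and 814 CPM. CD female E249 had 1081 and 458 CPM.

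Among the dentate markers, Dsp and Tdo2 had the least overlap between the diets in females. Dsp was at 0.397, 0.396, 0.523, 1.05 and 1.80 CPM in CD females and at 1.08, 1.18, 1.42 and 2.06 CPM in KD females, so that 1 CD female, E249, lay among the KD females. In CD males it was at 0.363, 0.477, 0.565, 0.575 and 0.687 CPM, and in KD males it ranged from 0.474 to 5.29 CPM with a median of 0.924 CPM. The male groups overlapped in KD males E254 and E256. Tdo2 was at 2.79, 2.38, 2.26, 1.52 and 1.18 CPM in CD females and at 1.32, 1.32, 0.660 and 0.603 CPM in KD females, overlapping only in CD female E67. In males it was at 1.98, 1.55, 1.55, 1.21 and 0.690 CPM on CD and from 0.608 to 1.80 CPM (median 1.12) on KD, with wide overlap.

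Both CA1 markers had their highest mean in KD males, and much of it came from E64. Without E64 the KD male mean of Fibcd1 fell from 17.6 to 5.25 CPM (KD females 6.67, CD females 4.06, CD males 2.76 CPM). That of Spink8 fell from 3.27 to 2.15 CPM (KD females 2.10, CD females 1.93, CD males 1.79 CPM). Fibcd1 was at 8.60, 4.58, 3.24, 2.88 and 1.03 CPM in CD females and at 9.75, 6.18, 6.16 and 4.61 CPM in KD females. The CD males were closest together, at 3.47, 2.92, 2.76, 2.47 and 2.18 CPM, and KD males ranged from 2.17 to 79.4 CPM with a median of 5.41 CPM. All KD females lay above all CD males, and CD females overlapped both. KD females and CD males differ in both diet and sex, and how many of all genes separate them was not counted. Among these KD females, E61, E68 and E207 are those with high striatal markers. Spink8 had medians of 1.83 and 2.0 CPM in CD and KD females and of 1.75 and 1.86 CPM in CD and KD males, and all of its groups overlapped.

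In edgeR's quasi-likelihood test across the 15660 genes that passed the expression filter, which all 7 markers did, 0 of the 7 passed FDR 0.1 and a 1.5-fold change between KD and CD females. Of all genes tested, 0.0447% passed (7 genes), and 1780 genes had an unadjusted p under 0.05. In the likelihood ratio test of edgeR 220 genes and in DESeq2 253 genes passed, and 0 of the 7 markers in either. The largest difference was that of Tdo2, with a log2 fold change of -1.09 (SE 0.37, unadjusted p = 0.00868, adjusted p = 0.255), and all 4 KD females lay below 4 of the 5 CD females. Dsp had a log2 fold change of 0.62 (SE 0.60) and Fibcd1 of 0.54 (SE 0.80), which was 0.70 (SE 0.45) without KD male E64. Those of C1ql2 (-1.08, SE 1.12), Lct (-0.78, SE 0.51), Prox1 (-0.09, SE 0.16) and Spink8 (0.08, SE 0.51) had 95% intervals that spanned 0, as did those of Dsp and Fibcd1.

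In the same comparison of females all 12 striatal markers were higher on KD (median log2 fold change 2.10, 8 at an unadjusted p under 0.05), all 5 of the cholinergic basal forebrain were higher (2.60) and all 9 of cortical excitatory neurons were lower (-1.01, 5 at an unadjusted p under 0.05), against a median of 0.01 over all genes, and 0 of them were called. Without E61, E68, E207, E249 and KD male E59, a fit added after these values were seen, 0 of the 7 markers and 0 genes in all passed in females. That fit leaves a single KD female, E227, which is assumed to vary like the other groups. Tdo2 was then at -0.57 (SE 0.63), Dsp at 1.45 (SE 0.90), Fibcd1 at 1.59 (SE 1.26) and Lct at 0.07 (SE 0.72). The part of striatal and cortical tissue in the levels of the 7 genes in females was not tested beyond this fit.

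In males 0 of the 7 markers passed, as did 0% of all genes in edgeR's quasi-likelihood test, in its likelihood ratio test and in DESeq2, with 557 genes at an unadjusted p under 0.05. Fibcd1 had a log2 fold change of 2.51 (SE 0.76, unadjusted p = 0.00384, adjusted p = 1.0), which was 0.90 (SE 0.44, 95% interval -0.02 to 1.82) without E64. Dsp had a log2 fold change of 1.91 (SE 0.56, unadjusted p = 0.00274, adjusted p = 1.0), which was 1.57 (SE 0.54) without E64 and 0.55 (SE 0.42) without both E64 and E59. Spink8 moved from 0.86 (SE 0.45) to 0.10 (SE 0.33) without E64. C1ql2 changed sign, from 0.40 (SE 0.93) to -0.99 (SE 0.83). Tdo2 was at -0.46 (SE 0.33) and at -0.81 (SE 0.31) without E64.

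**Figure D4:**
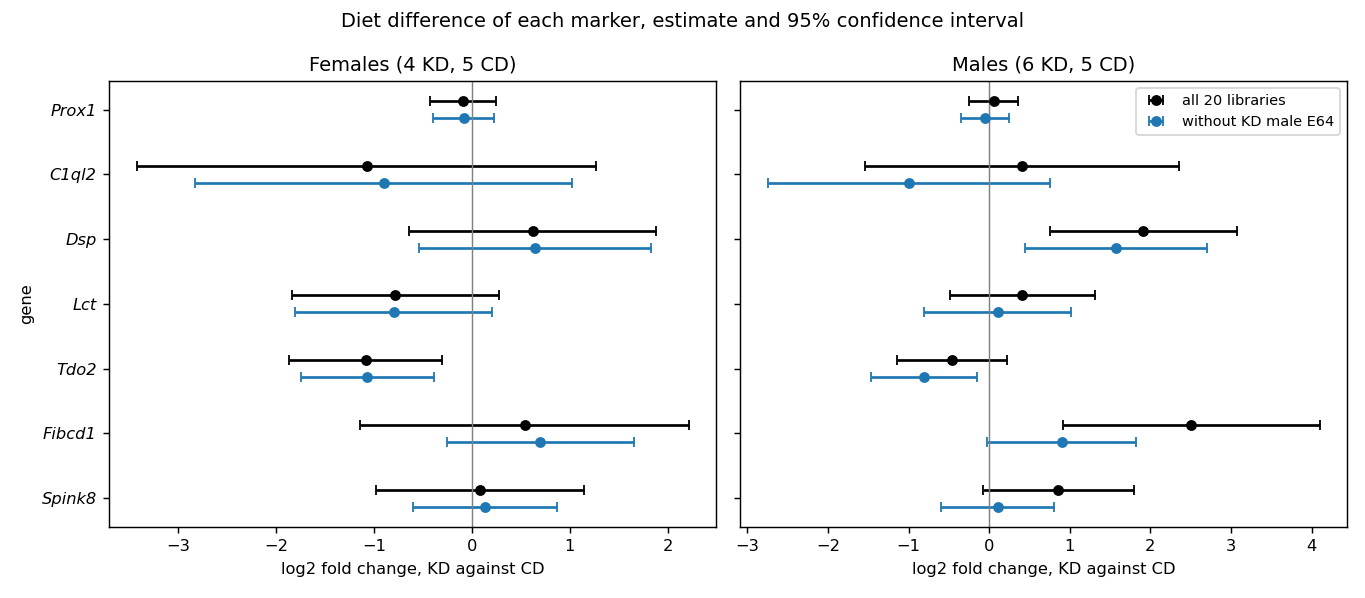
Log2 fold change of KD against CD for each marker in females and males, from the fit to all 20 libraries (black) and to 19 libraries without KD male E64 (blue), with 95% confidence intervals as bars. In males the estimate for Fibcd1 moves from 2.51 to 0.90 and that for C1ql2 from 0.40 to -0.99 when E64 is left out. In females the estimates of both fits lie close together, while the interval of Fibcd1 narrows from -1.14 to 2.22 with E64 to -0.25 to 1.65 without it.

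A difference in the diet effect between the sexes, tested as the diet by sex interaction, was not called for any of the 7 markers, nor for any gene (0% of all genes tested in edgeR's quasi-likelihood test, 1 gene in its likelihood ratio test and 1 in DESeq2, with 335 genes at an unadjusted p under 0.05). Its largest estimates, females minus males, were -1.97 for Fibcd1 (SE 1.09) and -1.48 for C1ql2 (SE 1.43) on the log2 scale, and without E64 they were -0.20 (SE 0.64) and 0.09 (SE 1.25). Between males and females, averaged over the diets, 0 of the 7 markers passed, against 0.134% of all genes (21 genes by edgeR's quasi-likelihood test, 286 by its likelihood ratio test and 212 by DESeq2, with 2122 genes at an unadjusted p under 0.05). The markers' log2 differences between the sexes ran from -0.16 for Dsp (SE 0.41) to 0.73 for C1ql2 (SE 0.73).

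When the diet effect was averaged over both sexes, 0 of the 7 markers passed against 0.268% of all genes (42 genes), and 2169 genes had an unadjusted p under 0.05. The comparison was added after the values of Tdo2 had been seen. Tdo2 was lower on KD (log2 fold change -0.78, SE 0.25, adjusted p = 0.164), Dsp higher (1.27, SE 0.41, adjusted p = 0.169) and Fibcd1 higher (1.52, SE 0.55, adjusted p = 0.212), none of them past the threshold. The likelihood ratio test of edgeR called these 3 genes and DESeq2 called Dsp and Tdo2, in fits that called 370 and 351 genes in all. Without KD males E59 and E64, 0 of the 7 markers and 3 genes in all passed.

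Exact permutation tests of the mean log2 CPM, two-sided and within each sex, called 0 of the 7 markers. The smallest of the 14 exact permutation p-values was that of Tdo2 in females (difference -1.0 on the log2 scale, p = 0.0476, the smallest possible being 0.00794), with an adjusted p of 0.341 over the 14 tests. With that floor a single female marker could not reach an adjusted p of 0.05, whatever its difference. In females the test therefore cannot decide on 1 marker, and in males the smallest possible exact p was 0.00216. In males the smallest exact p-values were those of Dsp (difference 1.29, p = 0.0693) and Fibcd1 (difference 1.39, p = 0.0974). KD and CD overlapped for all 7 genes in both sexes. How many of all genes overlap in this way was not counted, so whether the overlap is particular to the markers cannot be told.

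Other lists of hippocampal genes were read by the same fit. In females 0 of 10 further dentate genes, 0 of 5 further CA1 genes, 0 of 6 CA2 genes and 0 of the 4 tested CA3 genes passed, and the same counts were found in males. Their median log2 fold changes in females were 0.08, 0.19, 0.45 and -0.13, against 0.01 over all genes, and those in males were 0.06, 0.26, 0.59 and -0.15, against -0.003 over all genes. Averaged over the sexes, Wfs1 of the CA1 list (log2 fold change 1.28, SE 0.25, adjusted p = 0.0583) and Necab2 of the CA2 list (1.41, SE 0.27, adjusted p = 0.0659) rose on KD. Wfs1 averaged 21.3 CPM in CD and 73.2 CPM in KD females, and 22.0 and 41.7 CPM in CD and KD males. Both genes are also known from the striatum, and the median log2 fold change of the 12 striatal markers was 1.82 here, with all 12 higher on KD and 0 called. Their part in Wfs1 and Necab2 was not tested. Of the 4 genes of newborn granule cells, 0 passed between the diets in females or in males. Between males and females, averaged over the diets, 1 of the 4 was called, lower in males, against 0.134% of all genes. The median log2 difference of that list between the sexes was -1.25.

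Whether the markers were high in the same libraries was asked over the 21 pairs of genes, on log2 CPM over the 20 libraries. The median Pearson r was 0.25, with 17 pairs positive. Without E64 it was -0.04, with 8 pairs positive. Permutation tests with Benjamini-Hochberg adjustment over the 21 pairs called 2 pairs with all libraries and 0 without E64. The median r was 0.11 over the 10 pairs of dentate markers and 0.27 over the 10 pairs of a dentate with a CA1 marker. Without E64 these medians were -0.02 (4 pairs positive) and -0.21 (3 pairs positive), so their order rested on E64. The difference was not tested.

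One of the called pairs was of a dentate with a CA1 marker. Its dentate marker, Dsp, had r of 0.30 with Prox1, -0.004 with C1ql2, 0.10 with Lct and -0.29 with Tdo2, none of them called. Dsp and Fibcd1 had r = 0.77 (permutation p = 6.0e-05, adjusted p = 0.00126) and Spearman's rho = 0.73 (p = 0.000370, adjusted p = 0.00777). Their r was 0.80 within series 1 and 0.68 within series 2, and 0.68 without E59 and E64, the 2 libraries farthest from the median of Dsp. Without E64 alone it was 0.65, at an adjusted p of 0.0517. Fibcd1 and Spink8, both of CA1, had r = 0.70 (permutation p = 0.00417, adjusted p = 0.0438) but rho = 0.27 (p = 0.243, adjusted p = 0.729). That r was 0.87 in series 1, which holds E64, 0.45 in series 2, and 0.34 without E64. It was 0.40 without E265 and E64, the 2 libraries farthest from the median of Fibcd1, so the relation rests on E64.

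**Figure D5:**
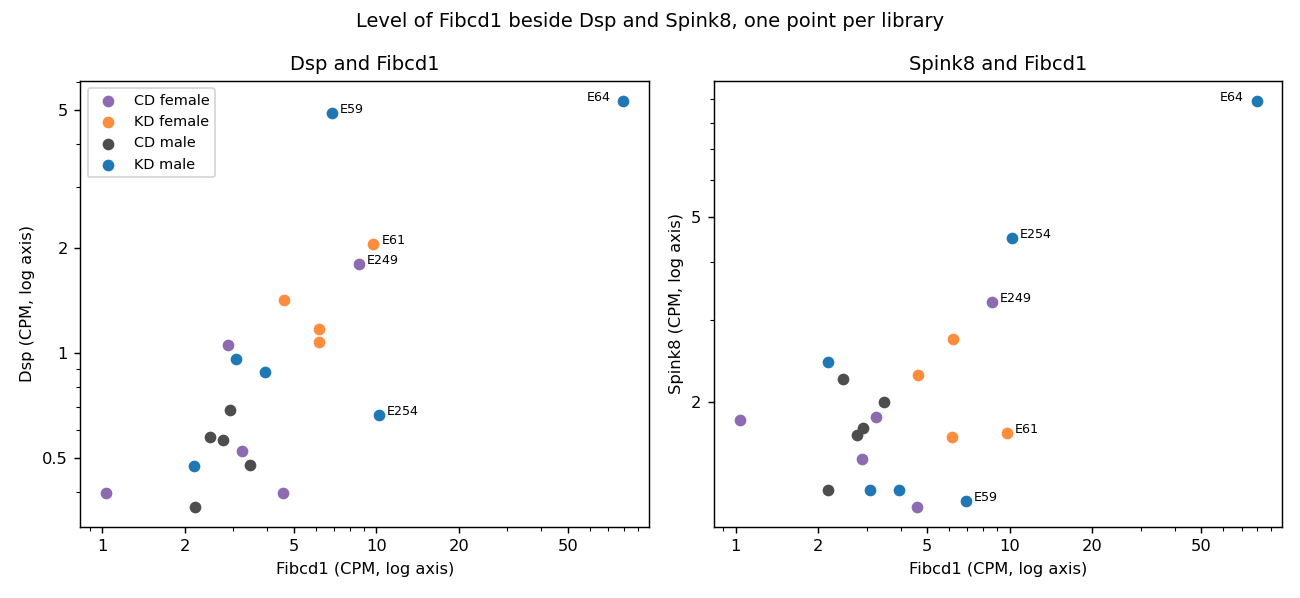
CPM of Dsp (left) and of Spink8 (right) against CPM of Fibcd1, both axes on a log scale, with 1 point per library coloured by group. Dsp rises with Fibcd1 in most libraries (r = 0.77), apart from KD male E254 (0.662 CPM of Dsp at 10.2 CPM of Fibcd1), and the correlation of Spink8 with Fibcd1 (r = 0.70) is 0.34 without E64.

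The genes most like the markers were ranked by the Pearson r of log2 CPM over the 20 libraries, after the means of group and library series were removed, among 14094 genes with a mean of at least 1 CPM. For the mean of the CA1 markers, Crym (r = 0.93), Fam65b (0.92), Slc44a5, Cpne2, Nhsl1, St6galnac5, Igfbp3, Eda, Ptpre and Zfp189 (0.87) came first. Without E64, Fam65b (r = 0.91) and Crym (0.85) still came first and second, and Slc44a5 and Cpne2 were also among the first 10. Crym encodes a thyroid hormone-binding crystallin. For the mean of the dentate markers the list was Rps28 (r = 0.87), Tmem176a, Mafk, Mfsd2a, Hsdl1, Trim8, Hspg2, Icosl, Adcy4 and Csad (0.79). It held none of the 10 further dentate genes, and Mfsd2a, the lipid transporter of brain endothelium, and Hspg2, the basement membrane proteoglycan perlecan, were in it. For C1ql2 alone, ranked after its values had been seen, Slc19a2 (r = 0.82) came first, and Tshz2 (0.82) came first without E64. With 20 libraries and so many genes compared, these rankings are descriptions.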

How the data were processed

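Frozen brain cortex of 20 APOE4 knock-in mice was analysed, 1 stranded total RNA library per mouse, so replicates are separate animals. The authors aligned 50-bp read pairs to mm10 with STAR (version not given in the sources used here) and deposited raw read counts for each gene. Groups came from the sample labels, which also name each library, and the S numbers in those names gave the 2 series. Of 23413 gene names, 21780 matched GENCODE on GRCm38, which gave coordinates and exon lengths.

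CPM and log2 CPM (prior count 2) were computed from the counts. Genes passing filterByExpr (15660) were tested with the quasi-likelihood F test of edgeR 4.0.16 in R 4.3.3, with upper-quartile scaling, robust dispersions, 4 groups and the library series in one fit, and Benjamini-Hochberg adjustment. Genes were called at FDR 0.1 and a 1.5-fold change. Exact permutation tests and permutations with 100000 resamples (numpy 2.4.6) used log2 CPM. Alternatives were TMM, other filters, no series term, RUVg with 1 factor (the study's own step, whose settings are not stated), each sex or series alone, the likelihood ratio test, DESeq2 1.42.0, a prior count of 0.5 and leaving out each mouse. Of 200 genes changed 2-fold in simulated counts, 73% were recovered in the comparison of females and 73.5% in that of males. Counts of 3 to 2206 per member and library limit precision.

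The members and the marker lists were chosen with earlier results of these data known. Named genes are the members, list genes that were called, the 3 most abundant of each hippocampal list, the 10 genes most like the members and those of the label check. Other list genes (Gpr161, Pou3f1, Dcn, Ttr, Plk5, Neurod1, Npnt, Trh, Vip and Vcan) were chosen after values were seen. So were the fit without E59 and E64 and that without the 5 libraries of highest striatal markers. The diet effect averaged over the sexes and the ranking for C1ql2 were also chosen after values were seen.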

Additional observations from a re-analysis of the deposited data

Results flagged for a closer look

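Of 28 combinations of a marker and a group, 3 had a mouse whose distance to its nearest neighbour took up most of the range of its group on the CPM scale, by Dixon's criterion at 95%. Chance flags about 1 in 20 such groups, or 1.4 of the 28. In KD males, Fibcd1 of E64 stood at 79.4 CPM against 2.17 to 10.2 CPM in the other 5, and C1ql2 of E64 at 10.4 CPM against 0.152 to 1.68 CPM. In KD females, Lct of E227 stood at 1.26 CPM against 0.368 to 0.505 CPM in the other 3. On the log2 scale 0 of the 28 groups had such a mouse.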

How the results depend on the processing

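In the 4 comparisons of females, males, the interaction and the sexes, 0 of the 7 markers were called under each alternative run, and all 7 were tested except with at least 10 counts in every library, where C1ql2, Dsp and Lct dropped out. Genes called over the whole table moved far more: from 7 to between 0 and 1046 in females (most without CD female E249), from 0 to at most 41 in the interaction, from 21 to between 4 and 813 between the sexes and from 42 to between 0 and 886 for the averaged diet effect, and stayed at 0 in males. For the averaged diet effect, 1 marker was called in series 1 alone (Dsp), 3 by the likelihood ratio test (Dsp, Tdo2 and Fibcd1) and 2 by DESeq2, and with each mouse left out the number lay between 0 and 3 (without CD female E249, and 1, Tdo2, without KD female E227). Of the 21 pairs, 1 was called with upper-quartile scaling and 0 in series 2 alone, and between 0 (without E64) and 2 with each mouse left out, with 1 pair without CD females E67 or E249, KD female E207, CD male E66 or KD male E254. Of 1084 log2 fold changes refitted for the 35 values, 40 changed sign, and the cause was not tested. In series 2 alone these were, in males, C1ql2 (-1.29) and Tdo2 (0.087), in the interaction Dsp (0.11), between the sexes Fibcd1 (-0.50) and for the averaged diet Lct (0.10). In series 1 alone they were, between the sexes, Dsp (0.25) and Tdo2 (0.47), and for the averaged diet C1ql2 (0.55). Between the sexes, Dsp was at 0.0099 without the series term and Fibcd1 at -0.10 with RUVg. Without E59 and E64 together, Prox1 (-0.064), C1ql2 (-0.69) and Lct (-0.055) changed sign in males, Dsp (0.17) and Fibcd1 (0.035) in the interaction and Fibcd1 (-0.49) between the sexes. Without E59, E61, E68, E207 and E249 together, Lct changed sign in females (0.068), between the sexes (-0.21) and for the averaged diet (0.24). With each mouse left out in turn, the ranges that crossed 0 were, in females, Spink8 -0.077 (without E207) to 0.34, and in males Prox1 -0.054 (without E64, also below 0 without E213) to 0.12 and C1ql2 -0.99 (without E64) to 1.12. In the interaction they were C1ql2 -2.10 to 0.091 and Spink8 -0.96 to 0.033, both above 0 without E64. Between the sexes they were Dsp -0.32 to 0.12, Tdo2 -0.16 to 0.098, Fibcd1 -0.41 to 0.47 and Spink8 -0.018 to 0.42, and for the averaged diet Prox1 -0.069 to 0.014 and C1ql2 -0.95 to 0.074. The exact permutation tests called 0 markers under both alternatives and without any 1 mouse. A single female marker could not have been called in any of these runs, nor a single male marker with any 1 male left out. The smallest possible exact p in males was 0.00794 without E64 or any other KD male. Upper-quartile, TMM and DESeq2 scaling differed by at most 0.016 (log2) between groups. No paired analysis was possible because mice of different groups share no replicate number. The lowest library held 3 counts of C1ql2 and of Lct, 5 of Dsp, 11 of Tdo2, 13 of Fibcd1, 19 of Spink8 and 82 of Prox1.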
